A study of Mus with 2 samples.

Results

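The genes described here are 7 members of the transforming growth factor beta (TGF-beta) pathway, measured by spatial transcriptomics in a control and an rIL7-treated mouse tumor. They are the ligands Tgfb1, Tgfb2 and Tgfb3, the receptors Tgfbr1 and Tgfbr2, the induced extracellular matrix gene Tgfbi and the induced inhibitor Smad7. They were chosen by symbol from 32285 features, of which 19681 had at least 1 count. No cut on measured values was used, but earlier results of these data were known when the genes were chosen. CT26, a colon carcinoma line of BALB/c origin, was grown under the skin of BALB/c mice aged 6 to 8 weeks. The control section came from the PBS arm, and the rIL7 section from the arm given 10 µg of recombinant mouse IL-7 into the peritoneum on days 11 and 13 after transplantation. Tumors of both arms were taken on day 15, frozen in embedding medium and cut at 10 µm. Each arm is represented by 1 section, so differences between the arms cannot be set against variation among animals, and no test was run. Nothing in the labels says whether the sections shared a slide or a day, so batch and treatment cannot be told apart. The 2 sections are called the control tumor and the rIL7 tumor.

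TGF-beta ligands are secreted in a latent form that is held in the extracellular matrix or on cell surfaces until it is activated. The active ligand binds the type II receptor Tgfbr2, which recruits and phosphorylates the type I receptor Tgfbr1, and this receptor phosphorylates Smad2 and Smad3. Together with Smad4 these enter the nucleus and act on targets that include matrix genes and Smad7, which feeds back on the receptors. In tumors the pathway is known for restraining T cells and for driving matrix production by fibroblasts.

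The Visium assay captures polyadenylated RNA on a grid of spots, each of which can hold several cells of different types, and counts each molecule once by its unique molecular identifier (UMI). After filtering, 2219 spots with 22951678 UMIs remained for the control tumor and 1950 spots with 25729233 UMIs for the rIL7 tumor. The median spot had 9623 and 12921.5 UMIs, respectively, so levels are given as UMIs per 1000000 of the section (CPM). Intervals are 95% intervals, exact Poisson for a level and exact binomial for a ratio or a share, and cover counting error only. To show how levels vary inside a tumor, its spots were divided by the median array row and the median array column into 4 quadrants, which are not replicates. The CT26 list (Rpl39l and Baiap2l1) stood at 1293 CPM in the control tumor and 1043 CPM in the rIL7 tumor. T cell markers were at 31.9 and 106 CPM, macrophage markers at 3543 and 3989.9 CPM, and skeletal muscle markers at 63.9 and 6.96 CPM. In such bulk sums over spots, fewer cells of a type and less RNA per cell cannot be told apart.

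Between the sections, the ligand Tgfb1 and the target Tgfbi were lower with rIL7, whereas the other 5 genes had ratios between 0.943 and 1.22. Tgfb1 was 1.72-fold lower (1.57 to 1.89) and Tgfbi 1.73-fold lower (1.67 to 1.78). A ratio of 1.5 either way was used to count genes, over the 12046 genes that reached 100 UMIs when the sections were added. By this rule 2 of the 7 genes were lower in the rIL7 tumor, against 3.17% of all genes, and 0 of 7 were higher, against 4.79%. The same 2 genes had quadrants that lay wholly below those of the control tumor, as did 10.7% of all genes. None of the 7 had quadrants wholly above, against 10.2%. The median log2 ratio of the 7 genes was 0.04, compared with -0.003 over all genes.

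**Figure D1:**
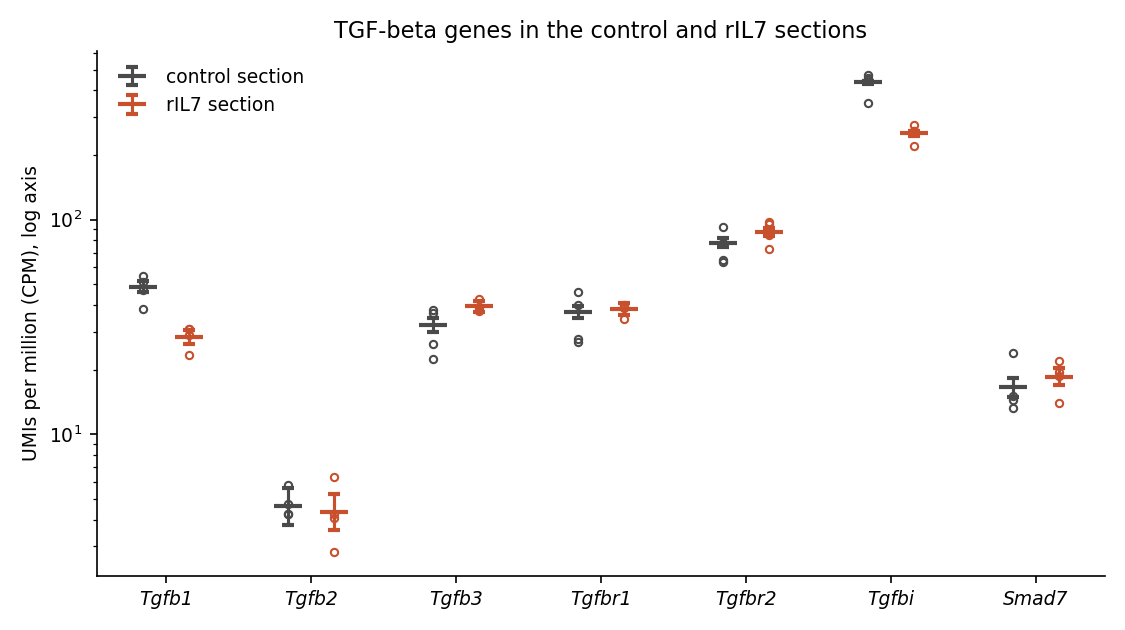
Level of each gene in CPM (log axis) in the control (grey) and rIL7 (orange) sections. The wide bar is the section level, the error bar its 95% Poisson interval and the open circles the 4 quadrants; the quadrants are apart for Tgfb1 and Tgfbi, lower with rIL7 in both, and overlap for the other 5 genes.

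Tgfb1, the ligand made by many immune cells and platelets, had 1119 UMIs (48.8 CPM) in the control tumor and 729 UMIs (28.3 CPM) in the rIL7 tumor, a ratio of 0.581 (0.529 to 0.639). Its control quadrants were at 54.8, 51.3, 46.8 and 38.2 CPM, and its rIL7 quadrants at 23.3, 30.8, 31.0 and 29.1 CPM. The lowest control quadrant was thus above the highest rIL7 quadrant. Platelets carry much TGF-beta1, and the platelet list stood at 21.1 and 22.9 CPM, with quadrants of 17.7 to 25.2 and 18.2 to 26.9 CPM. In that list Gp9 was at 0 in both sections and Gp1ba at 0 in the rIL7 tumor. Regulatory T cells also express Tgfb1, and their list was higher in the rIL7 tumor, at 11.0 against 19.7 CPM. The part of these cells in the difference was not tested.

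Tgfb3, a ligand of mesenchymal cells among others, had 742 UMIs (32.3 CPM) in the control tumor and 1013 UMIs (39.4 CPM) in the rIL7 tumor, a ratio of 1.22 (1.11 to 1.34). The quadrants ran over 38.0, 36.5, 22.5 and 26.3 CPM in the control tumor and 37.8, 39.01, 37.6 and 42.7 CPM in the rIL7 tumor. The higher control quadrants thus reached the lower rIL7 quadrants. The ratio was smaller than the 1.69-fold spread between control quadrants and larger than the 1.14-fold spread between rIL7 quadrants. Tgfb2, the ligand with the largest role in embryonic tissues, was near the lower limit of detection, with 106 UMIs (4.62 CPM) and 112 UMIs (4.35 CPM). Its ratio of 0.943 had an interval of 0.716 to 1.24, so a difference within that interval was not detectable at this depth.

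The makeup of the ligand transcripts therefore differed between the sections. Of all UMIs of the 3 ligands, Tgfb1 took 56.9% (54.7 to 59.1) in the control tumor and 39.3% (37.1 to 41.6) in the rIL7 tumor. Tgfb3 took 37.7% (35.6 to 39.9) and 54.6% (52.3 to 56.9), and Tgfb2 took 5.39% and 6.04%. Put as a ratio, Tgfb1 had 1.51 UMIs per UMI of Tgfb3 in the control tumor (1.37 to 1.66) and 0.720 in the rIL7 tumor (0.653 to 0.792). Tgfb1 was thus the leading ligand in the control tumor and Tgfb3 in the rIL7 tumor. Counts of 3′ UMIs are not divided by transcript length, so this order holds for molecules captured at the 3′ end and not for protein.

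Neither receptor differed between the sections by more than the spread of its quadrants. Tgfbr2, the type II receptor that binds ligand, had 1793 UMIs (78.1 CPM) in the control tumor and 2256 UMIs (87.7 CPM) in the rIL7 tumor, a ratio of 1.12 (1.054 to 1.19). Its quadrants spanned 63.8 to 92.8 CPM and 73.3 to 97.2 CPM and so overlapped. Tgfbr1, the type I receptor kinase, had 853 UMIs (37.2 CPM) and 986 UMIs (38.3 CPM), a ratio of 1.03 (0.9399 to 1.13), with quadrants of 27.0 to 45.9 and 34.3 to 40.1 CPM. Tgfbr2 had 2.10 UMIs per UMI of Tgfbr1 in the control tumor (1.94 to 2.28) and 2.29 in the rIL7 tumor (2.12 to 2.47), so the intervals of the receptor ratio overlapped.

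Tgfbi, a secreted matrix protein that binds collagen and integrins and is named for its induction by TGF-beta, was the most abundant of the 7 transcripts. It had 9998 UMIs (436 CPM) in the control tumor and 6490 UMIs (252 CPM) in the rIL7 tumor, a ratio of 0.579 (0.561 to 0.597). The control quadrants were at 474, 455, 446 and 349.6 CPM, and the rIL7 quadrants at 221, 275, 258 and 258 CPM. All 4 control quadrants were above all 4 rIL7 quadrants. Relative to the ligand, the section sums gave 8.93 UMIs of Tgfbi per UMI of Tgfb1 in the control tumor (8.40 to 9.51). In the rIL7 tumor they gave 8.90 (8.25 to 9.62), so the ratio of the sums was alike to within counting error. This describes whole sections and not single spots.

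Smad7, the inhibitory SMAD that targets the receptors for degradation and is itself induced by the pathway, had 379 UMIs (16.5 CPM) in the control tumor and 476 UMIs (18.5 CPM) in the rIL7 tumor. The ratio was 1.12 (0.977 to 1.29) and the quadrants overlapped, at 13.2 to 23.8 and 13.9 to 21.9 CPM. Of the pair of induced genes, Tgfbi was thus lower in the rIL7 tumor and Smad7 was not detectably different.

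In both sections Tgfbi and Tgfbr2 had the highest levels of the 7 genes, and Smad7 and Tgfb2 the lowest. Between them the order was Tgfb1, Tgfbr1 and Tgfb3 in the control tumor, at 48.8, 37.2 and 32.3 CPM. In the rIL7 tumor it was Tgfb3, Tgfbr1 and Tgfb1, at 39.4, 38.3 and 28.3 CPM. The intervals of Tgfbr1 and Tgfb3 touched in the control tumor, at 34.7 to 39.7 and 30.0 to 34.7 CPM, and overlapped in the rIL7 tumor, at 36.0 to 40.8 and 37.0 to 41.9 CPM. The quadrants of this pair overlapped in both tumors. Quadrants of Tgfb1 and Tgfbr1 overlapped in the control tumor (38.2 to 54.8 and 27.0 to 45.9 CPM) and not in the rIL7 tumor (23.3 to 31.0 and 34.3 to 40.1 CPM). All of these are 3′ UMIs, not divided by length.

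The levels were next compared by position in the tumor. Spots at most 2 grid steps from the outline of the main tissue piece were counted as edge (401 in the control tumor, 330 in the rIL7 tumor), and its other spots as interior. Tgfb1 and Tgfbi were higher at the edge than in the interior of both sections. Tgfb3 was lower at the edge of both, and Tgfbr2 was higher at the edge of the rIL7 tumor. These statements rest on intervals clear of 1. Intervals above 1 were found for 2 of the 7 genes in the control tumor and 3 of 7 in the rIL7 tumor, against 7.26% and 17.6% of all genes. By the ratio of 1.5, 0 of the 7 genes were higher at the edge of the control tumor, against 2.06% of all genes, and 1 was lower, against 4.18%. In the rIL7 tumor 0 of 7 were higher at the edge, against 9.71% of all genes, and 1 was lower, against 8.33%. The gene past the limit in the control was Tgfb2, with 14 edge UMIs and a ratio of 0.626 whose interval of 0.329 to 1.104 includes 1. In the rIL7 tumor it was Tgfb3. The median edge ratio over all genes was 0.960 in the control tumor and 0.964 in the rIL7 tumor.

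Edge and interior levels of Tgfb1 were 55.0 and 47.0 CPM in the control tumor, an edge ratio of 1.17 (1.01 to 1.35). The rIL7 levels were 35.9 and 27.0 CPM, an edge ratio of 1.33 (1.101 to 1.61). Tgfbi stood at 505 and 418 CPM in the control tumor (1.21, 1.15 to 1.27) and at 309 and 242 CPM in the rIL7 tumor (1.28, 1.199 to 1.36). Both genes were lower in the rIL7 tumor in each zone: the section ratio of Tgfb1 was 0.653 at the edge and 0.573 in the interior, and that of Tgfbi 0.611 and 0.578.

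Edge and interior levels of Tgfb3 were 25.7 and 34.0 CPM in the control tumor, an edge ratio of 0.756 (0.614 to 0.923). The rIL7 levels were 26.8 and 41.7 CPM, an edge ratio of 0.641 (0.519 to 0.785), or 1.56-fold higher in the interior. At the edge the sections differed little in Tgfb3, with a section ratio of 1.04 (0.791 to 1.37), compared with 1.23 (1.11 to 1.36) in the interior. Tgfb1 accordingly took more of the ligand UMIs at the edge than inside, with 65.6% (60.6 to 70.4) against 54.6% (52.2 to 57.1) in the control tumor. Its shares in the rIL7 tumor were 54.4% (48.2 to 60.6) at the edge and 36.8% (34.4 to 39.2) inside.

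Tgfbr2 stood at 78.3 and 77.7 CPM at the edge and in the interior of the control tumor, an edge ratio of 1.01 (0.894 to 1.13). With rIL7 it stood at 109 and 82.8 CPM, an edge ratio of 1.32 (1.19 to 1.47). The section ratio of Tgfbr2 was therefore 1.40 (1.21 to 1.61) at the edge and 1.07 (0.994 to 1.14) in the interior. At the same edge the T cell list stood at 37.4 CPM in the control tumor and 272 CPM in the rIL7 tumor, and the macrophage list at 3871 and 6829 CPM, which moved with the receptor; their part in it was not tested. Tgfbr1 had edge ratios of 0.840 (0.697 to 1.01) and 0.897 (0.743 to 1.08), and Smad7 of 0.886 (0.670 to 1.16) and 1.11 (0.857 to 1.41), all with intervals that include 1.

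Step by step from the outline, Tgfbi in the control was highest at the first step, at 526 CPM, and lowest at 12 steps or more, at 366 CPM. In the rIL7 tumor Tgfbi stood at 278 CPM at the first step, 336 CPM at step 2 and 345 CPM at step 3, and then declined to 189 CPM at 12 steps or more. The outermost spots of the rIL7 tumor were thus below those just inside them in Tgfbi. There the macrophage list was at its highest, 7986 CPM, against 3083 CPM at step 9. Tgfbr2 peaked with that list, at 125 CPM at the first step against 71.7 CPM at step 9. Tgfb1 was likewise highest at the first step in both sections, at 63.8 CPM in the control tumor and 41.3 CPM in the rIL7 tumor. Tgfb3 went the other way in the rIL7 tumor, from 22.6 CPM at the first step to 48.0 CPM at step 8.

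**Figure D2:**
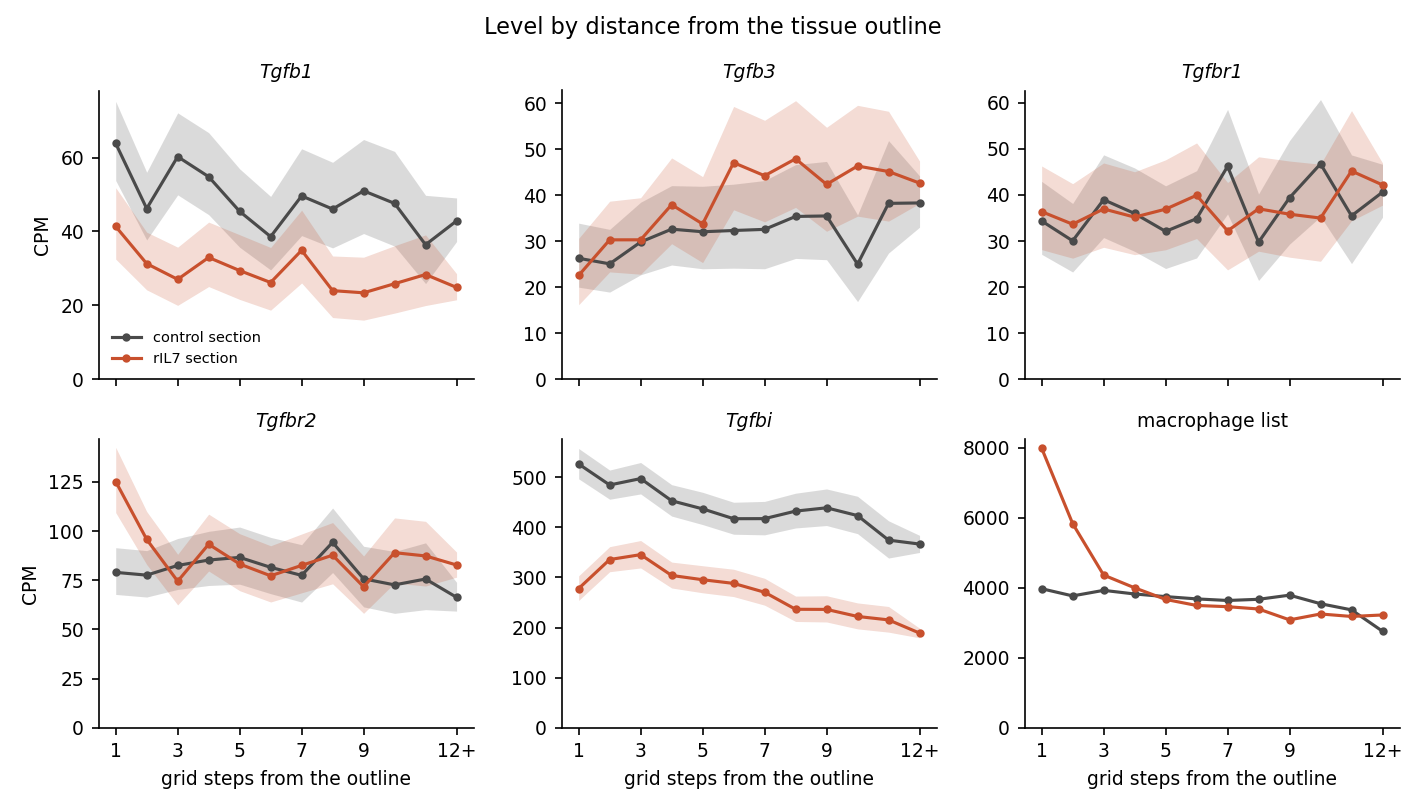
Level in CPM (vertical axes, from 0) by distance from the tissue outline in grid steps (horizontal axes; 12+ pools 12 steps or more) for 5 genes and the macrophage marker list, in the control (grey) and rIL7 (orange) sections. Bands are 95% Poisson intervals, drawn for the genes; the rIL7 line of Tgfbi lies below the control line at every distance, and Tgfb3 of the rIL7 tumor runs from 22.6 CPM at the first step to 48.0 CPM at step 8.

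The spread between quadrants gives the scale of variation inside a section. In the control, the highest quadrant exceeded the lowest by 1.36-fold for Tgfbi, 1.44-fold for Tgfb1, 1.46-fold for Tgfbr2, 1.69-fold for Tgfb3, 1.70-fold for Tgfbr1 and 1.80-fold for Smad7. The same folds in the rIL7 tumor were 1.247 for Tgfbi, 1.33 for Tgfb1, 1.33 for Tgfbr2, 1.14 for Tgfb3, 1.17 for Tgfbr1 and 1.58 for Smad7. The difference of Tgfbi and of Tgfb1 between the sections was larger than either of these folds, and that of Tgfb3 was smaller than the control fold.

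**Figure D3:**
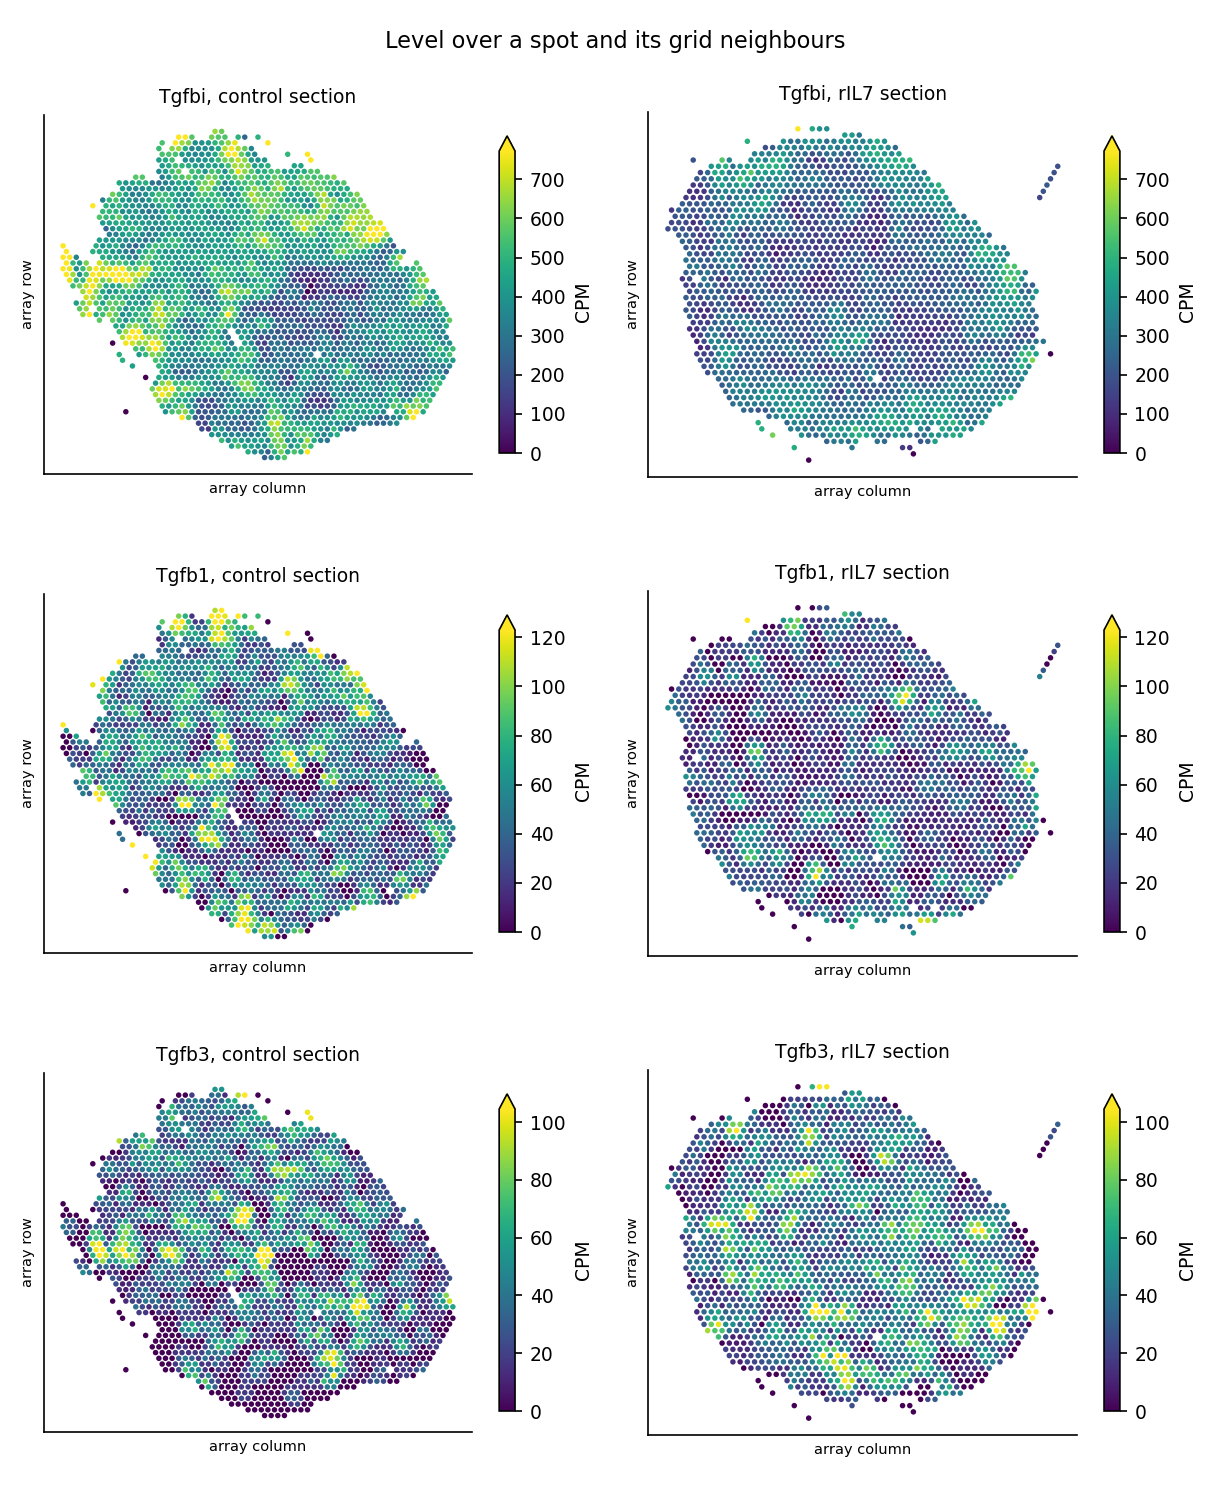
Level of Tgfbi, Tgfb1 and Tgfb3 (rows) over each spot pooled with its grid neighbours, in CPM, drawn at the spot's array row and column in the control (left) and rIL7 (right) sections. The colour scale is shared within a row and ends at the 99th percentile of its spots; Tgfbi is lower over most of the rIL7 tumor, with higher patches toward the outline, while Tgfb3 has scattered patches in the interior of both sections.

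For comparison across spots, each spot was thinned to 5900 UMIs, which left 2002 control and 1869 rIL7 spots and left out 217 and 81 shallower ones. Neighbouring spots share tissue and free RNA, so correlations are given as a description with no p-value. Tgfbi was patchy: Spearman's rho between a spot and the mean of its neighbours was 0.288 in the control tumor and 0.227 in the rIL7 tumor. The other 6 genes had values of at most 0.066 in both. Of the 7 genes, 1 reached 0.1 in both sections, against 3.11% of all genes. Between members, 0 of the 21 pairs passed 0.1 in both sections over single spots, where most genes have few UMIs. The share of all gene pairs was not taken over single spots. For Tgfbi and Tgfb1 the values were 0.038 in the control tumor and -0.032 in the rIL7 tumor.

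To compare larger areas, the sections were tiled into blocks of 4 array rows by 8 array columns with at least 8 spots, which gave 141 control and 119 rIL7 tiles that differ in depth. Over tiles, 4 of the 21 pairs passed 0.1 with the same sign in both sections, against 7.62% of all pairs of the 12046 genes. Tgfbi went with Tgfb1 (rho 0.330 in the control tumor, 0.137 in the rIL7 tumor) and with Tgfbr2 (0.249 and 0.239). Tgfb1 went with Tgfbr2 (0.165 and 0.128), and Tgfb3 with Tgfbr1 (0.108 and 0.104). Weak values in sparse counts are given here as a description only. Tgfbr1 went with Tgfbr2 in the control tumor (0.297) and not in the rIL7 tumor (-0.088), and no test of that difference was made.

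The genes also differed in the cell type markers they went with. Tgfbi followed the macrophage list (Cd68, Adgre1, Csf1r, Mrc1, C1qa, C1qb, C1qc, Fcgr1 and Apoe), with a rho over tiles of 0.706 in the control tumor and 0.623 in the rIL7 tumor. Tgfbr2 followed it at 0.452 and 0.437, and Tgfb1 at 0.448 and 0.289. A rho of at least 0.3 in both sections, a limit chosen after the values were seen, was reached by 2 of the 7 genes, against 3.23% of all genes. Over single spots the values with this list were 0.303 and 0.175 for Tgfbi, 0.106 and 0.066 for Tgfb1, and 0.0998 and 0.124 for Tgfbr2. There 1 of the 7 genes reached 0.1 in both sections, against 1.4% of all genes. Without thinning Tgfbr2 passed it as well, at 0.157 and 0.141, but the share of all genes was not taken without thinning.

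Tgfbi also followed the T cell list, at 0.421 over the control tiles and 0.642 over the rIL7 tiles, and ran against the CT26 list in the rIL7 tumor, at -0.465, compared with -0.123 in the control tumor. Over single spots the T cell values were 0.0030 and 0.070, and the CT26 values -0.034 and -0.068. Tgfb3 had the reverse pattern, with 0.274 and 0.286 for the CT26 list and -0.204 and -0.200 for the T cell list, but 0.012 and 0.022, and -0.016 and -0.049, over single spots. Its values with the fibroblast list were 0.235 and 0.180. Smad7 had its highest values with the neutrophil list, at 0.325 and 0.198, and Tgfbr1 had 0.360 with the fibroblast list in the control but 0.115 in the rIL7 tumor. Tgfb2, with few UMIs, had no value beyond 0.16 in either direction.

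**Figure D4:**
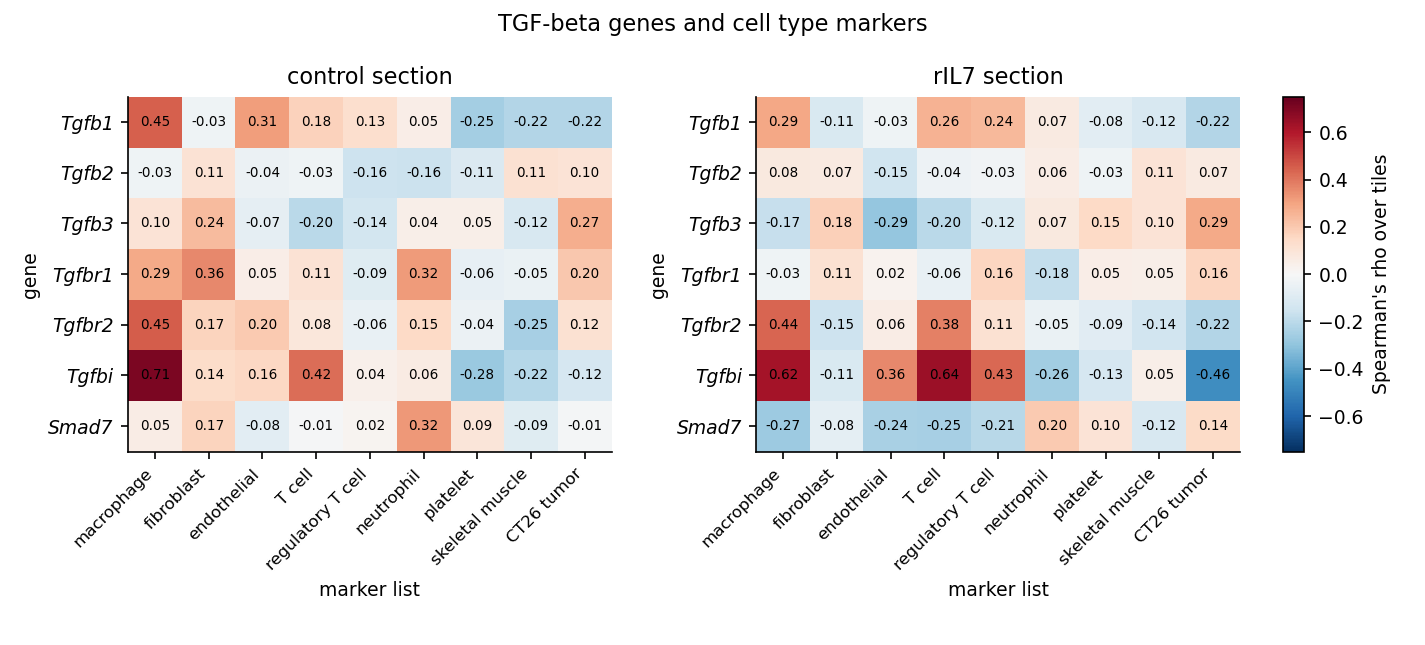
Spearman's rho over tiles (colour and printed value) between each of the 7 genes (rows) and the summed level of 9 cell type marker lists (columns), in the control tumor (141 tiles) and the rIL7 section (119 tiles). Tgfbi has the highest values in both sections with the macrophage and T cell lists, and Tgfb3 is positive with the CT26 tumor list and negative with the T cell list in both.

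The thinned spots were also ranked by the macrophage list. Between the 20% of spots lowest and the 20% highest in the list (400 spots each in the control tumor, 373 in the rIL7 tumor), Tgfbi went from 286 to 539 CPM in the control tumor, a ratio of 1.88 (1.71 to 2.07). With rIL7 it went from 200.4 to 299 CPM, a ratio of 1.49 (1.32 to 1.69). The spots highest in the list in the rIL7 tumor were therefore close in Tgfbi to the spots lowest in the list in the control tumor. Spots were ranked within each tumor, so the sets of the 2 tumors are not matched for the level of the list. Tgfbr2 went from 64.8 to 103 CPM in the control tumor (1.59, 1.298 to 1.97) and from 63.2 to 115 CPM in the rIL7 tumor (1.83, 1.48 to 2.26). Its levels in both sets of spots were thus close between the tumors. Tgfb1 went from 34.3 to 61.0 CPM in the control tumor (1.78, 1.34 to 2.36) and from 23.2 to 34.5 CPM in the rIL7 tumor (1.49, 1.03 to 2.17). Tgfb3 had ratios of 1.051 (0.763 to 1.45) and 1 (0.730 to 1.37), with intervals that include 1.

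The macrophage list, a sum over 9 genes, differed less between the sections than Tgfbi and Tgfb1 did. It stood at 3543 CPM in the control tumor and 3989.9 CPM in the rIL7 tumor, with quadrants of 2431 to 4503 and 2935 to 4916 CPM, and the 2 sections differed little in the interior, at 3458 and 3453 CPM. Of its 9 genes 0 were at 0 in either section. In the same interior the section ratios of Tgfbi and Tgfb1 were 0.578 and 0.573. The sum weighs its abundant genes most, among them Apoe, at 1286 CPM in the control tumor and 1643 CPM in the rIL7 tumor. The part of macrophages in the lower levels of Tgfbi and Tgfb1 was not tested.

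The transcripts most like each gene were ranked by the smaller of its rho values over the tiles of the 2 sections, among 7612 other genes whose mean level reached 20 CPM (7613 for Smad7). For Tgfbi these were H2-Ab1 (0.708 in the control tumor, 0.721 in the rIL7 tumor), Cd74, H2-K1, H2-Aa and Ctsc, which encode antigen-presenting molecules, the class II invariant chain and a lysosomal protease. They did not share the lower level of Tgfbi as a group: H2-Ab1 stood at 577 CPM in the control tumor and 689 CPM in the rIL7 tumor, and Cd74 at 1380.2 and 1573 CPM, while Ctsc stood at 356 and 294 CPM. For Tgfbr2 they were C1qa (0.454 and 0.469), Lyz2, B2m, C1qb and Ctsc, which include complement and lysozyme genes of macrophages. For Tgfb1 they were B2m (0.377 and 0.319), Psap, Apoe, Tifab and Clec4a2. Of these, Clec4a2, a lectin receptor of myeloid cells, stood at 75.8 CPM in the control tumor and 46.3 CPM in the rIL7 tumor, and Tifab at 57.9 and 43.1 CPM. Both were thus lower with rIL7, as Tgfb1 was, whereas B2m stood at 2323 and 2652 CPM, Psap at 868 and 1261 CPM and Apoe at 1286 and 1643 CPM. C1qa, C1qb and Apoe are also in the macrophage list, so the ranks of Tgfbr2 and Tgfb1 repeat in part their values with that list.

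The remaining genes had other neighbours. For Tgfb3 they were Clu (0.449 and 0.428), Pdgfra (0.421 and 0.425), Lrp1, Nucb1 and Fgfr1, among them growth factor receptors of mesenchymal cells. For Tgfbr1 they were Itgb5 (0.372 and 0.307), an integrin subunit, Tpst1, Tnfsf13, Retsat and Cebpd. For Smad7 they were Grem1 (0.326 and 0.354), a secreted antagonist of bone morphogenetic proteins, Itpk1, Ackr3, Ptgs2 and Ier3. Genes in these lists were ranked on the same tiles that give the values, so the values describe the ranking. Tgfb2 had too few UMIs to be ranked.

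Around the 7 genes, 52 further genes of the pathway were followed in 6 lists, of which 47 had enough UMIs. Itgb6, Itgb8, Smad6, Cdkn2b and Itgae did not. Unlike Tgfb1 and Tgfbi, these genes were mostly level or slightly higher with rIL7 over whole sections. Their median log2 ratio was 0.09, compared with -0.003 over all genes, and 35 of 47 had a ratio above 1, against 49.4% of all genes. Intervals lay above 1 for 22 of the 47 and below 1 for 3, and the share of all genes was not taken for these counts. By the ratio of 1.5, 2 of 47 were higher (4.79% of all genes) and 0 were lower (3.17%). Quadrants wholly above those of the control were found for 11 of 47 (10.2% of all genes), and wholly below for 0 of 47 (10.7%).

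The 2 genes past the ratio were Dcn, a proteoglycan that binds TGF-beta, and Acta2, the smooth muscle actin of activated fibroblasts and vessel walls. Dcn stood at 203 CPM in the control tumor and 326 CPM in the rIL7 tumor (1.61, 1.55 to 1.67), with quadrants of 131 to 259.6 and 292 to 357 CPM. Acta2 stood at 17.2 and 27.6 CPM (1.61, 1.42 to 1.82), with quadrants of 13.5 to 23.3 and 26.0 to 30.02 CPM. In both genes the quadrants of the 2 sections were apart. In the interior alone Dcn had 1.63 (1.57 to 1.699), Acta2 was no longer past 1.5, at 1.36 (1.18 to 1.57), and Ltbp2 was, at 1.502. The fibroblast list stood beside them at 744 and 812 CPM, with overlapping quadrants, and the endothelial list at 89.9 and 78.6 CPM. From the first step to 12 steps or more, the fibroblast list went from 677 to 816 CPM in the control tumor, and the CT26 list from 1213 to 1364 CPM. In the rIL7 tumor they went from 909 to 793 CPM and from 718 to 1113 CPM. Whether the fibroblast list marks fibroblasts alone in these tumors was not tested.

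Among 14 measured genes for latency and activation, 12 had a ratio above 1 (49.4% of all genes) and 2 had quadrants wholly above the control (10.2%). Many of these ratios were close to 1, and the interval lay above 1 for 6 of the 14. The share of all genes was not taken for that count. In the interior alone 9 of the 14 had a ratio above 1, against 47.2% of all genes. The highest was Ltbp2, a matrix protein related to the latent TGF-beta binding proteins, at 203 and 295 CPM (1.46, 1.40 to 1.51), with quadrants of 179.7 to 214 and 287 to 302 CPM. The lowest was Mmp14, a membrane-bound protease, with 89 and 86 UMIs (0.862, 0.633 to 1.17). Of the 3 co-receptors and further type I receptors, Tgfbr3, or betaglycan, which presents ligand to Tgfbr2, stood at 101 and 129 CPM (1.28, 1.21 to 1.35) with quadrants apart. Acvrl1, an endothelial type I receptor, stood at 16.1 and 14.8 CPM (0.921, 0.796 to 1.07).

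Of the 3 SMAD transducers, Smad3 stood at 34.2 CPM in the control tumor and 47.8 CPM in the rIL7 tumor (1.40, 1.28 to 1.53), with quadrants of 31.0 to 37.0 and 44.7 to 52.1 CPM that were apart. Smad2 stood at 28.5 and 27.6 CPM (0.968, 0.8696 to 1.08). Only for Smad3 of this list did the quadrants not overlap. Among 9 measured inhibitors, 4 had a ratio above 1 (49.4% of all genes) and the median log2 ratio was -0.02. The lowest was Bambi, a decoy receptor without a kinase domain, at 18.0 and 12.6 CPM (0.696, 0.600 to 0.807), with quadrants of 14.6 to 20.3 and 9.68 to 14.9 CPM that met.

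Among 12 matrix and contractile targets, 11 had a ratio above 1 (49.4% of all genes), with a median log2 ratio of 0.23. Quadrants wholly above the control were found for 3 of them (10.2% of all genes). In the interior alone 7 of the 12 had a ratio above 1, against 47.2% of all genes. Col1a1, Col3a1, Col1a2, Postn and Tagln were below it there, at 0.742, 0.877, 0.901, 0.573 and 0.638. Over whole sections the exception was Col1a2, a chain of type I collagen, at 856 and 843 CPM (0.984, 0.965 to 1.004). Of 6 measured transcription and cell cycle targets, 4 had a ratio above 1 (49.4% of all genes). The highest was Bhlhe40, a transcription factor induced by many stimuli, at 41.4 and 57.7 CPM (1.39, 1.28 to 1.51), and the lowest was Cdkn1a, the cell cycle inhibitor p21, at 172 and 152 CPM (0.884, 0.846 to 0.924). In both the quadrants overlapped. Over whole sections, Tgfbi was past the ratio downward and none of these 18 targets was. In the interior, Postn at 0.573 (0.462 to 0.709) and Tagln at 0.638 (0.393 to 1.02) were past it as well, beside Tgfbi at 0.578, as were 3.69% of all genes.

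**Figure D5:**
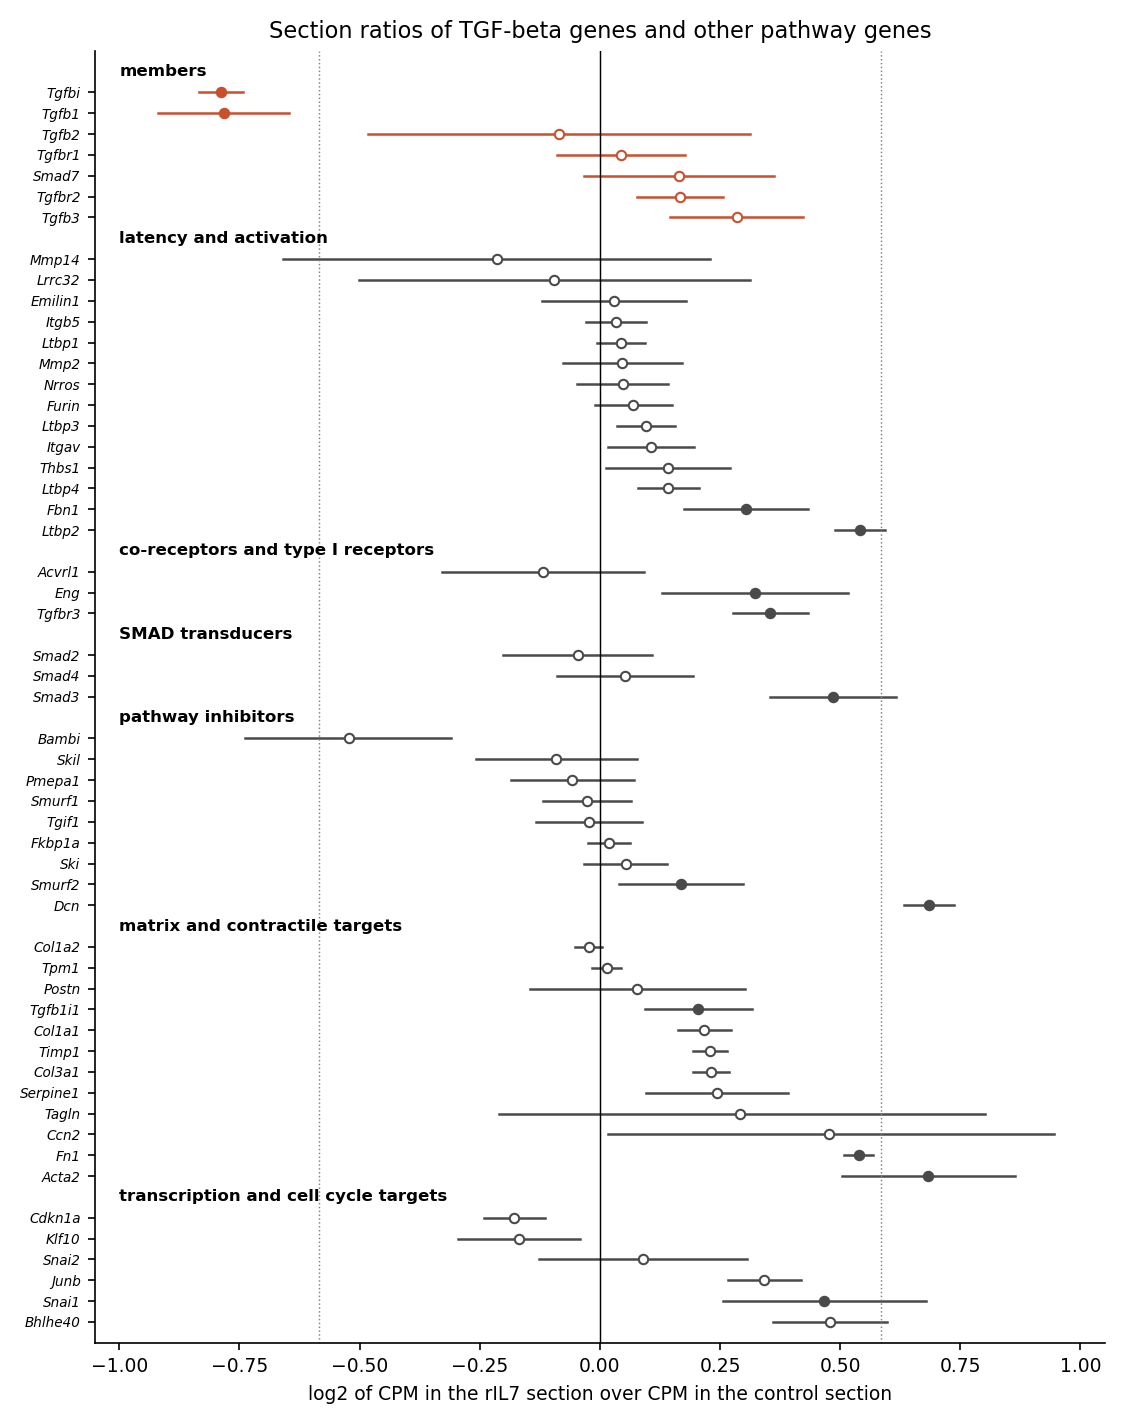
The log2 ratio of CPM in the rIL7 tumor over the control section for the 7 genes (orange) and the 47 measured pathway genes by list (grey), with 95% counting intervals. Filled points have quadrants that do not overlap between sections and dotted lines mark a ratio of 1.5 either way; Tgfb1 and Tgfbi lie beyond the lower line, and Dcn and Acta2 beyond the upper line.

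More of the pathway genes were past 1.5 between edge and interior of the rIL7 tumor than between the sections. In the control, 1 of 47 pathway genes was past 1.5 toward the edge (2.06% of all genes) and 1 toward the interior (4.18%). For the rIL7 tumor these counts were 12 of 47 (9.71% of all genes) and 4 of 47 (8.33%). Of the 12 matrix and contractile targets, 6 were past the ratio toward the edge of the rIL7 tumor. The examples that follow were chosen after their values were seen. Col1a1, a chain of type I collagen, had an edge ratio of 1.30 (1.22 to 1.39) in the control tumor and 4.75 (4.51 to 5.00) in the rIL7 tumor. Postn, a matrix protein related in structure to Tgfbi, had 1.53 (1.17 to 1.97) and 5.81 (4.61 to 7.32). Lrrc32, which holds latent TGF-beta on the surface of regulatory T cells and platelets, had 1.07 (0.618 to 1.77) and 4.11 (2.72 to 6.18), from 20 and 44 edge UMIs. The edge ratios of Tgfbi itself were 1.21 and 1.28, so the target gene of this name did not share the steep edge of Postn and Col1a1. The fibroblast list had edge ratios of 0.892 in the control tumor and 1.03 in the rIL7 tumor, from edge levels of 678 and 830.3 CPM. For the endothelial list the edge ratios were 1.13 and 2.23, from edge levels of 98.6 and 142 CPM. The part of these lists in the ratios of the genes was not tested.

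The 7 genes lie on 7 chromosomes in the RefSeq annotation of GRCm38, the build of the authors' reference mm10. Tgfb1 lies on chromosome 7 from 25687002 to 25705077, Tgfb2 on chromosome 1 from 186622787 to 186709697, and Tgfb3 on chromosome 12 from 86056743 to 86079041. Tgfbr1 lies on chromosome 4 from 47353222 to 47414926 and Tgfbr2 on chromosome 9 from 116087695 to 116175363. Tgfbi lies on chromosome 13 from 56609586 to 56639359 and Smad7 on chromosome 18 from 75367365 to 75395935. Counts are per gene and come from the 3′ end, so transcript forms were not told apart.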

How the data were processed

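Spatial 3′ gene expression was measured on 1 control and 1 rIL7 tumor section. The authors made the deposited matrices, raw UMI counts of every gene in every spot, with Space Ranger 1.1.0 against mm10. Other deposited items (barcodes, gene symbols, in-tissue flag, array row and column) were used as given by the authors, and image scale factors were not used. Spots with under 10% mitochondrial UMIs and more than 200 genes were kept, as in the study's methods, which removed 2 control spots and 1 rIL7 spot. For each gene, UMIs were added over spots and scaled by the total of the section. Of the barcodes, 1702 occur in both lists, as positions of the common array. With 1 section per group no test was run. Depth of 22951678 and 25729233 UMIs sets the counting intervals, which treat UMIs as independent molecules.

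Gene symbols and coordinates were matched to RefSeq for 7 of 7 genes. The genes named were the 7 members, the highest and lowest ratio of each pathway list, any gene past 1.5 with quadrants apart, and the 5 genes most like each member with at least 300 UMIs in each section. The members, pathway and marker lists were chosen with earlier results of these data known. A further gene of the macrophage list is not reported here and is in none of its values. Alternatives covered the spot filter, scaling (including TMM by edgeR 4.0.16 in R 4.3.3, used for scaling only), the definition of the edge, thinning and tiles. The computations used Python 3.11.15, numpy 2.4.6, scipy 1.17.1 and pandas 2.3.3, and were tested on simulated counts. Sequences are not printed here.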

Additional observations from a re-analysis of the deposited data

Results flagged for a closer look

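Of the 7 genes, none had edge ratios on opposite sides of 1 in the 2 sections with both intervals clear of 1. Among the 47 pathway genes this held for Col3a1, a chain of type III collagen. Col3a1 had control and rIL7 edge ratios of 0.898 (0.853 to 0.944) and 2.60 (2.50 to 2.70). The same held for Fn1, fibronectin, with 0.862 (0.824 to 0.9005) and 1.046 (1.01 to 1.08). Both were below the interior at the control edge and above it at the rIL7 edge. The share of all genes that meet this rule was not taken, so Col3a1 and Fn1 are examples and no result about the pathway. The difference between the sections was not tested, since each group holds 1 section.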

How the results depend on the processing

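No section ratio and no edge ratio of the 7 genes changed direction under the alternatives where it had been clear of 1. Of 56 alternative section ratios, 50 moved by less than the counting interval, and of 70 alternative edge ratios, 64 did. These counts include alternatives that could hardly move a ratio. Dropping the spot filter returned 2 control spots and 1 rIL7 spot, and not counting the array border as outline left every edge ratio as it was. TMM and median-of-ratios scaling shifted every log2 ratio by 0.011 and 0.012. With edge spots alone, the log2 ratio of rIL7 over control was -0.61 for Tgfb1, 0.057 for Tgfb3, 0.48 for Tgfbr2, -0.71 for Tgfbi and 0.43 for Smad7. With each spot weighing the same, it was -0.70 for Tgfbi, and the log2 edge ratio of Tgfbi in the control was 0.36. An edge of 1 step gave log2 edge ratios of 0.44 for Tgfb1 in the control, and 0.58 for Tgfbr2 and 0.15 for Tgfbi in the rIL7 section, and an edge of 3 steps gave 0.23 for Tgfbr2 and 0.46 for Tgfbi there. The 2 higher pathway genes became 15 with edge spots alone, 11 at a fold of 5/4, 0 at a fold of 2 and 4 with a minimum of 20 UMIs. The 0 lower ones became 3 in the interior alone (Postn, Tagln and Lrrc32), 2 at the edge alone and 1 at a fold of 5/4. For the lower genes in the interior alone the share of all genes was 3.69%. The other changed counts have no share of all genes beside them, so they are no result about the pathway. The 0 pairs of members past 0.1 became 4 over tiles. Of 42 alternative correlations with the macrophage list, 19 moved out of the range of 20 redraws of the thinning. The 42 include the lowest and the highest redraw of each correlation, which set that range and so could not move. Thinning to 3000 UMIs gave 0.182 for Tgfbi and 0.068 for Tgfb1 in the control, and 0.104 and 0.024 in the rIL7 section, whereas no thinning and tiles gave higher values for all 3 genes. The causes of these shifts were not tested. No paired analysis was possible because each group holds 1 section and no test was run, and for the same reason no replicate could be left out. Depth limits Tgfb2, with 106 and 112 UMIs, most of all.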
